A study of Homo sapiens with 3 samples.

Results

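The genes described here are zinc finger genes named ZNF with at least moderate expression in HCT116, a cell line from a human colorectal carcinoma. Members were chosen by name (ZNF followed by a digit) and selected on level, a mean of at least 5 FPKM over the 3 libraries of the study. FPKM gives the fragments of a gene per kilobase of its length, scaled for the size of the library. The rule gave 132 genes of 428 ZNF genes and of 15625 genes in the deposited table. It used the level of each gene, so the levels are given as a description and no test was made on them.

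The study compared 2 libraries of cells with an shRNA against circRAPGEF5, a circular RNA (labelled sh_circRAPGEF5_1 and sh_circRAPGEF5_2), with 1 library of cells with a control shRNA (sh_control). All were HCT116 cells with genotype label MT, transfected with the shRNA system and collected 36 or 48 h later, with no record of which library had which time. Whether the pair of knockdown libraries came from different hairpins or different cultures is not recorded, so the spread between them, and each p-value made from it, may be technical. Gene-level values cannot show how far the circular RNA itself was depleted. The control was a single library and has no SD.

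Zinc finger proteins of the C2H2 type fold a short stretch of residues around a zinc ion held by cysteines and histidines, and strings of such fingers read DNA sequence. The largest group in mammals carries a KRAB domain, which recruits the corepressor TRIM28 and with it histone methyltransferase and HP1 proteins, and is best known for silencing retroelements. Many KRAB genes lie in tandem clusters, above all on chromosome 19, and arose by duplication. Other ZNF genes act in ribosome assembly, RNA processing, chromatin complexes or spindle assembly.

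The coding sequence of a finger shows what the members have in common. Below is the third finger of 4 members, the 2 with the highest mean level (ZNF146 and ZNF664) and 2 others with means of 21.5 (ZNF24) and 22.6 FPKM (ZNF121), from GENCODE v29 transcripts on GRCh38, with the codons of the zinc-binding cysteines and histidines in capitals.
ZNF664: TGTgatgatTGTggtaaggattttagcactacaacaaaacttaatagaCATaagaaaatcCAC
ZNF146: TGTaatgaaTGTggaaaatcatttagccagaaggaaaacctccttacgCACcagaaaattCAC
ZNF24: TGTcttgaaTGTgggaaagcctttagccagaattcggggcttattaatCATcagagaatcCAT
ZNF121: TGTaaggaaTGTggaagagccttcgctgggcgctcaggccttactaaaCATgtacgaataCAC
Between the capitals the 4 sequences differ from each other, and it is there that the residues that touch DNA are encoded. The members' longest GENCODE proteins held a median of 8 such fingers, with 0 in 4 members and 30 in ZNF646.

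Of the 132 members, 36 lay on chromosome 19, 14 on chromosome 7 and 13 on chromosome 16. The authors' table placed 53 members in the KEGG pathway of herpes simplex virus 1 infection, an entry into which KEGG collects KRAB zinc finger genes, and a search of the proteins for the KRAB core found it in 47 of these 53 and in 6 others. Members in the KEGG list had a median of 12 fingers, against 5 in members outside it. Of the 194 ZNF genes at 1 to under 5 FPKM, 59.3% were in the KEGG list and 47.9% on chromosome 19, against 40.2% and 27.3% of the members (no test was made).

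Levels were moderate in most members. In knockdown library 1 they lay between 3.55 and 61.9 FPKM with a median of 8.49, in knockdown library 2 between 2.29 and 74.7 with a median of 8.16, and in the control between 3.81 and 109 with a median of 9.46. By mean over the libraries 80 members lay under 10 FPKM, 39 at 10 to under 20, 11 at 20 to under 50 and 2 at 50 or more. In all 3 libraries 101 members reached 5 FPKM. Just inside the threshold, ZNF337 had a mean of 5.004 FPKM, ZNF562 of 5.01 and ZNF526 of 5.07. Just outside, ZNF302 had 4.98, ZNF776 4.96 and ZNF397 4.95. Of these, ZNF302 was at 3.58 and 3.22 FPKM in knockdown libraries 1 and 2, against 8.13 in the control.

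The cells had the marker genes of their label and few of other cell types. Among 8 genes of colorectal epithelium 6 had a mean of at least 1 FPKM, with EPCAM at 170.0 and 191 FPKM in the knockdown libraries, against 176 in the control, while VIL1 and LGALS4 stayed at or under 0.377. The leukocyte marker sum was 3.96 and 10.2 FPKM in the knockdown libraries and 3.09 in the control, with CD68 the largest part and PTPRC listed at 0 to 0.00901. Fibroblast markers summed to 4.71 and 8.49 against 14.0 in the control, nearly all of it COL1A1. The epithelial sum was 2552 and 3882 against 2286, and most of it was keratin, with KRT8 at 1084 and 1694 FPKM against 1031. CDH1 went the other way, with 20.3 and 26.7 FPKM against 33.1. The part of these shifts in the results below was not tested, and in bulk RNA fewer cells of a type and less RNA per cell cannot be told apart.

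None of the 132 members passed the test between knockdown and control. The test was limma across 11216 genes with a mean of at least 1 FPKM, on log2(FPKM + 1), a scale that shrinks fold changes at low levels. All 132 members passed that filter. With 1 residual degree of freedom it called 2 of all genes (0.0178%) at an adjusted p under 0.05. Among members the smallest limma adjusted p was 0.623. An unadjusted limma p under 0.05 was reached by 3 members, 2.27%, against 7.07% of all genes tested. On the same scale no member differed at least 2-fold in both knockdown libraries in either direction, where 1.21% of all genes were at least 2-fold higher and 1.7% at least 2-fold lower. A difference that misses the threshold in a design this small is not shown to be absent.

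In both knockdown libraries 33 members (25.0%) were higher than the control and 54 (40.9%) lower, and 45 lay on opposite sides. Among all genes tested 31.7% were higher in both and 37.6% lower in both, and among the 8198 genes at 5 FPKM or more 37.1% were higher and 32.8% lower. Under median-ratio rescaling 40 members were higher and 46 lower, and of all genes tested 36.9% were higher and 31.9% lower. With quantile normalization 37 members were higher and 54 lower, and of all genes 36.0% and 33.6%, so for all genes the larger side turned under both scalings. The median log2 fold change of the members was -0.11, with -0.074 in library 1 and -0.10 in library 2, against -0.048 for all genes tested and 0.020 for those at 5 FPKM or more. Under median-ratio rescaling it was -0.026 against 0.032 for all genes, and with quantile normalization -0.055 against 0.0099. The spread of the members was narrower than that of genes at 5 FPKM or more, with an SD of the log2 fold change of 0.39 against 0.53. Both fold changes share the control library, so the 2 knockdown libraries are not independent witnesses of a side.

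**Figure D1:**
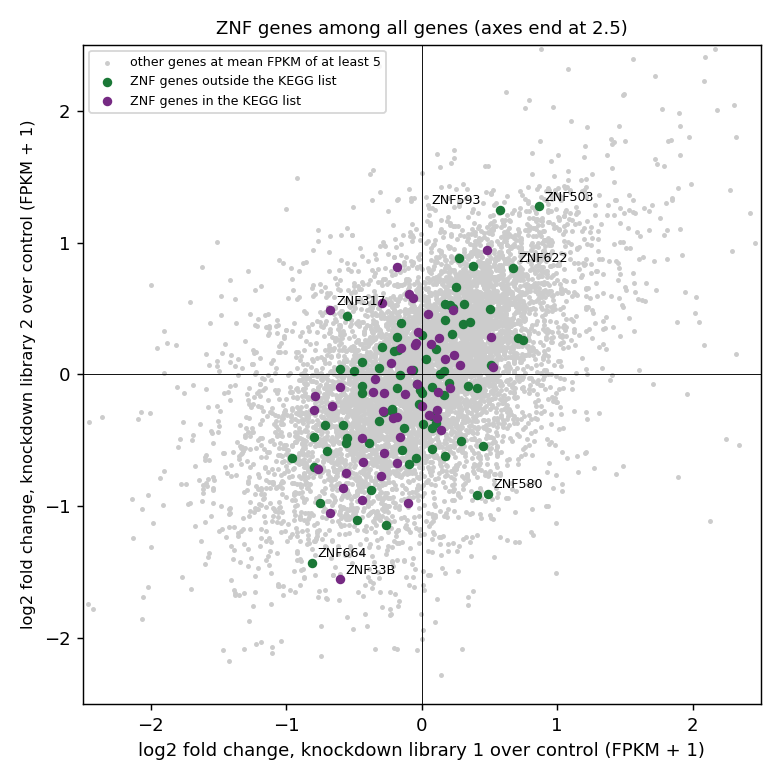
Log2 fold change over the control in knockdown library 1 (x axis) and library 2 (y axis) on the log2(FPKM + 1) scale, with 132 ZNF genes in colour (in or outside the KEGG list) over other genes at 5 FPKM or more in grey; 20 other genes and 0 ZNF genes lie beyond the axes. The ZNF genes sit inside the cloud, with no member beyond 1 on both axes.

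These counts differed with level. For genes at 5 to under 20 FPKM, 32.2% were higher in both knockdown libraries and 36.8% lower. The 119 members in that range had 26 higher (21.9%) and 50 lower (42.0%), with a median of -0.12 against -0.043. For genes at 1 to under 5 FPKM, 17.1% were higher in both and 50.9% lower, and the ZNF genes of that range, which are not members, had 25 of 194 higher (12.9%) and 128 lower (66.0%), with a median of -0.29 against -0.21. Under median-ratio rescaling the ZNF genes of that range had 30 higher and 110 lower, and all genes of the range 615 higher and 1363 lower. With quantile normalization these were 57 and 80 for the ZNF genes and 1033 and 1007 for all genes. The 13 members at 20 FPKM or more had 7 higher in both and 4 lower, and a median of 0.076. With quantile normalization these were 5 and 6, with a median of 0.0010, and under median-ratio rescaling 7 and 2, with a median of 0.16.

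**Figure D2:**
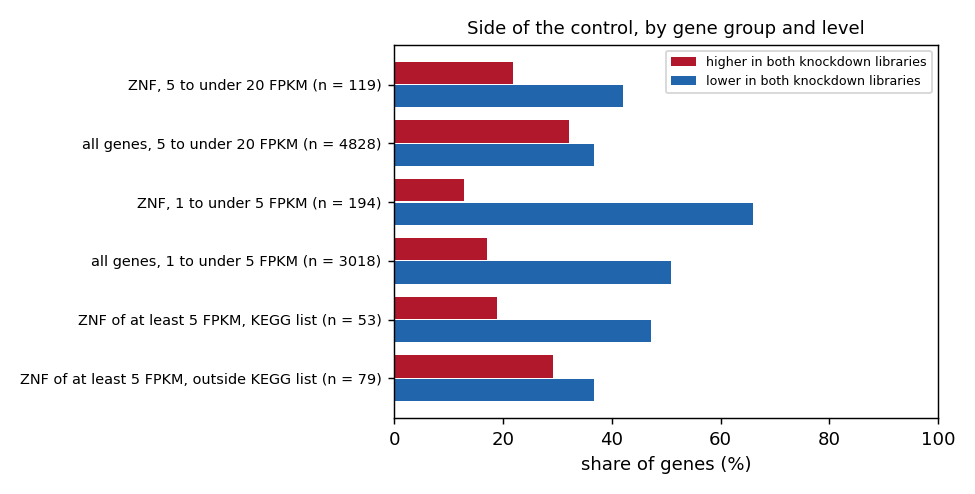
Share of genes (x axis, percent) higher in both knockdown libraries (red) and lower in both (blue) for ZNF genes and all genes at 5 to under 20 and at 1 to under 5 FPKM, and for members in and outside the KEGG list. On the FPKM as deposited, the lower share is the longer bar in each of the 6 groups. It runs from 36.7% in members outside the KEGG list to 66.0% in ZNF genes at 1 to under 5 FPKM. The higher share is the larger for all genes at 5 to under 20 FPKM under both other scalings. So it is for members outside the KEGG list under median-ratio rescaling, and for all genes at 1 to under 5 FPKM with quantile normalization.

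The members farthest above the control included regulators of transcription and ribosome assembly. ZNF503 (Entrez 84858, GRCh38 chromosome 10, 75397830 to 75401906), a developmental corepressor of the NET family, had 23.6 and 31.8 FPKM in knockdown libraries 1 and 2, against 12.5 in the control. Both knockdown libraries were above the control by 1.07 ± 0.41 (SE) in mean log2 fold change (limma adjusted p of 0.628). ZNF593 (Entrez 51042, chromosome 1, 26169871 to 26170873), whose yeast counterpart Bud20 helps export the large ribosomal subunit, had 41.5 and 66.6 FPKM, against 27.4 in the control. The log2 fold change was 0.91 ± 0.42 with a limma adjusted p of 0.712, and library 2 was the higher of the pair. ZNF622 (Entrez 90441, chromosome 5, 16451519 to 16465792), counterpart of yeast Rei1 in late maturation of that subunit, had 29.3 and 32.2 FPKM, against 17.97 in the control. Here the knockdown libraries lay close together, and the log2 fold change was 0.74 ± 0.40 with a limma adjusted p of 0.761. ZNF146 (Entrez 7705, chromosome 19, 36214602 to 36238774), a protein made almost only of fingers and the member with the second highest control level, had 54.9 and 74.7 FPKM, against 41.9 in the control. All 4 of these genes had both knockdown libraries above the control, as the choice of the 10 highest required.

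ZNF428 and ZNF384, also among the 6 members with the highest mean, were nearer to the control. ZNF428 had 37.4 and 24.5 FPKM, against 38.5 in the control, and ZNF384 26.3 and 27.9 against 25.7.

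At lower levels ZNF354A, a KRAB gene, had 9.53 and 13.5 FPKM, against 6.56 in the control. ZNF335, a subunit of a histone H3K4 methyltransferase complex, had 11.2 FPKM in both knockdown libraries, against 7.63 in the control, and ZNF518B, a partner of the methyltransferase G9a, had 8.33 and 11.4 FPKM against 6.83. These 3 were above the control in both libraries, as the same choice required. The other members among the 10 highest were ZNF296, ZNF655 and ZNF696, with mean log2 fold changes of 0.58, 0.50 and 0.50.

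The 10 lowest members too were taken from those with both knockdown libraries on 1 side of the control. The member farthest below the control was also the one with the highest control level. ZNF664 (Entrez 144348, chromosome 12, 123971845 to 124015439) had 61.9 and 40.1 FPKM in knockdown libraries 1 and 2, against 109 in the control. The mean difference was -1.12 ± 0.42 (SE, log2) at a limma adjusted p of 0.623, and both knockdown libraries were below the control. The table also holds a readthrough row, ZNF664-RFLNA, at 0 and 0.0241 FPKM in the knockdown libraries and 0.0260 in the control. ZNF33B (Entrez 7582, chromosome 10, 42574185 to 42638568), a KRAB gene, had 5.36 and 2.29 FPKM, against 8.66 in the control, with a log2 fold change of -1.08 ± 0.49 and a limma adjusted p of 0.706. Library 2 was the lower of the pair, and its FPKM was under that of every other member there. ZNF224, a KRAB repressor known to act on the aldolase A gene, had 4.50 and 3.24 FPKM, against 7.80 in the control.

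ZNF395, a DNA-binding protein described as induced by hypoxia, had 11.1 and 9.37 FPKM, against 19.4 in the control, with a log2 fold change of -0.86 ± 0.41 and a limma adjusted p of 0.728. Of its transcript, 84.2% of 50-base windows also occur in annotated transcripts of its neighbour FBXO16, so its value is uncertain. ZNF687, which forms the Z3 complex with ZNF592 and ZMYND8, had 6.96 and 7.502 FPKM, against 12.8 in the control, while its partner ZNF592 had 9.05 and 8.64 against 10.7. ZNF687 and ZNF592 were below the control in both libraries, the first by more. ZMYND8 is not a ZNF gene, and its values are not given here. The rest of the 10 lowest were ZNF367, ZNF358, ZNF251, ZNF714 and ZNF32, with mean log2 fold changes between -0.79 and -0.70. For ZNF32 the smallest whole reads behind the values were 14 and 7 in the knockdown libraries and 17 in the control. A factor common to its libraries cannot be seen, so these do not give its depth.

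**Figure D3:**
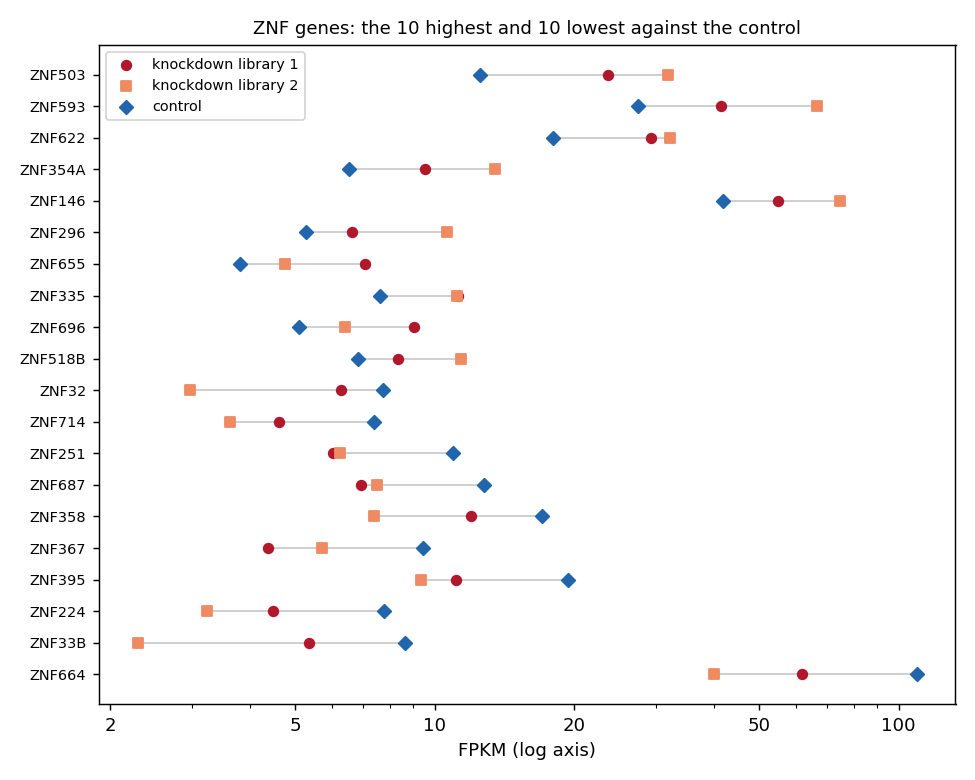
FPKM (x axis, log scale) in knockdown library 1 (circle), knockdown library 2 (square) and the control (diamond) for the 10 members highest and the 10 lowest against the control, among those on 1 side in both libraries. The control is the lowest point in the upper 10 rows and the highest in the lower 10, as the choice of rows fixes, and ZNF664 spans 40.1 to 109 FPKM.

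The promoters of the ribosome-linked pair and of ZNF664 are shown as examples at high levels. ZNF664 had the lowest mean log2 fold change of the members. The pair was chosen for its ribosome link, and ZNF503, not shown here, stood above both at 1.07. They run 5′ to 3′ from RefSeq on GRCh38.p14, each a window around the start that RefSeq gives, most of it upstream. The start RefSeq gives for ZNF664 lies inside the GENCODE gene interval printed above. Capitals mark the E-box CACGTG, the palindrome bound by MYC and related factors.
ZNF593: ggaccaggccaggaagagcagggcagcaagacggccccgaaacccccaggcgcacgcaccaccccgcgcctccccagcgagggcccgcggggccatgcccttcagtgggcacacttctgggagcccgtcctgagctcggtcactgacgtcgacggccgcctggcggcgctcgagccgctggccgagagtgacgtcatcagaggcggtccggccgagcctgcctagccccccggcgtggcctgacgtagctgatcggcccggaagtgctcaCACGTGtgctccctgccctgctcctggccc
ZNF622: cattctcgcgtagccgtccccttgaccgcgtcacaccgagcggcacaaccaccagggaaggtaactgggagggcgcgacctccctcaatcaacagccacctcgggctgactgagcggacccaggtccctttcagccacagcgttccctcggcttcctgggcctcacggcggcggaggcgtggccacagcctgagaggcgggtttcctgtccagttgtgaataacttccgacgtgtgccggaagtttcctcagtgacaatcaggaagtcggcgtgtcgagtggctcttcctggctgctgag
ZNF664: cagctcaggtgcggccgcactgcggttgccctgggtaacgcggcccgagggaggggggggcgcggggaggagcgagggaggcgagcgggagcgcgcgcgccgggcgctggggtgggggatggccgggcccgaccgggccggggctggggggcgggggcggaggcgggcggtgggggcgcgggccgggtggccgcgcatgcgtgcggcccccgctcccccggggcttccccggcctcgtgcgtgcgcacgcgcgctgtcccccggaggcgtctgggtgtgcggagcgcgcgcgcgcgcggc
They lie at chr1:26169658-26169957 on the plus strand, chr5:16465751-16466050 on the minus strand and chr12:123972965-123973264 on the plus strand. The GC share was 72.7% for ZNF593, 63.0% for ZNF622 and 84.3% for ZNF664. The E-box stood once in the ZNF593 window, near its 3′ end. There it lies inside the GENCODE interval of the gene printed above, not upstream of it. It was found in 8.04% of the 112 members with a window and in 8.78% of 27305 genes of the RefSeq table, and the 9 members that hold it had log2 fold changes from -0.63 (ZNF318) to 0.91 (ZNF593).

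Sequence shared with other annotated genes, among them near-identical copies, limits what single values can show. ZNF33A and ZNF33B lie on both arms of chromosome 10 and their coding sequences were identical at 96.3% of 2333 aligned bases. Their first finger is the same, base for base, and the second differs at the capitals.
ZNF33A first finger: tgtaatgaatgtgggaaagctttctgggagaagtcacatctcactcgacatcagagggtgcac
ZNF33B aligned finger: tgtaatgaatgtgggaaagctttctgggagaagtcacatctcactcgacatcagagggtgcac
ZNF33A second finger: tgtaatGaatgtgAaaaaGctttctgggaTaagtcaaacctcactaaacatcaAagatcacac
ZNF33B aligned second finger: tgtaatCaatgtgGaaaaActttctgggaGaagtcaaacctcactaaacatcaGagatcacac
Of the 50-base windows of the ZNF33B transcript, 7.13% also occur in ZNF33A. ZNF33A had 9.84 and 4.92 FPKM in the knockdown libraries, against 10.7 in the control, so both copies were lowest in library 2. Of all members, 59 shared at least 1 such window with another gene, 15 shared over 10% and 4 over 50% (ZNF395, ZNF410, ZNF23 and ZNF286A). Of these 4, ZNF395 shared most with FBXO16 and the others with annotated entries under clone names, not with another ZNF gene. For ZNF503 the other gene was a second entry of the same name. How reads that fit several genes were counted is not given in the sources used here.

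Among the 12 RNA and ribosome genes of the list, 11 were members, and 0 passed in either direction. Both knockdown libraries were above the control in 3 and below it in 3, and the list's median was -0.069. Under median-ratio rescaling 4 were above and 1 below, with a median of 0.018, and with quantile normalization 3 were above and 4 below, with a median of -0.13. ZNF598, the ubiquitin ligase that marks collided ribosomes, had 24.1 and 21.7 FPKM, against 24.1 in the control. ZNF207, a kinetochore protein, had 22.1 and 16.6 against 20.9, and ZNF326, which links splicing to RNA polymerase II, 7.16 and 7.75 against 7.54. Of these 3, ZNF207 in library 2 lay farthest from the control, by -0.31 on the log2 scale. ZNF277, a partner of a small-subunit ribosomal protein, had 10.7 and 10.3 FPKM against 12.6. ZNF385A, an RNA-binding cofactor of p53, had 27.2 and 10.3 FPKM against 20.3, on opposite sides of the control.

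Of 15 chromatin cofactors 9 were members, with 4 higher in both libraries, 3 lower and a median of -0.22. ZNF219 had 7.65 and 8.08 FPKM, against 11.7 in the control, and was below it in both libraries. Of 15 activators and developmental regulators without KRAB 9 were members, 4 higher and 4 lower, with a median of -0.14. ZNF143, an activator at snRNA and many other promoters, had 7.60 and 10.1 FPKM, against 6.64 in the control, while ZNF740 had 6.64 and 7.28 against 11.4. Of 20 SCAN domain genes 7 were members, 1 higher and 4 lower, with a median of -0.13 (2 and 3 under both other scalings). ZNF24, a SCAN repressor, had 17.5 and 20.2 FPKM, against 26.7 in the control, and stood below it in both libraries, as did ZNF496 and ZNF165, at -0.29 and -0.27 in mean log2 fold change, while ZNF444 was at 0.29. Of the 14 genes listed as KRAB repressors with known targets only ZNF202 and ZNF317 were members, each with its knockdown libraries on opposite sides of the control. The list does not hold every such member: ZNF224, described above and lower in both libraries, was not in it. None of the members of these lists passed limma's threshold.

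Split by KRAB, the members' medians lay close together. The 53 members in the KEGG list had 10 higher in both libraries (18.9%) and 25 lower (47.2%), with a median of -0.12, against 23 (29.1%) and 29 (36.7%) of the 79 others, with a median of -0.082. Among all genes at 5 to under 20 FPKM 36.8% were lower in both. Under median-ratio rescaling the KEGG members had 15 higher and 23 lower, and those outside the list 25 higher and 23 lower. With quantile normalization these were 14 and 24 in the list and 23 and 30 outside it, with medians of -0.054 and -0.057. Members with a KRAB match had a median of -0.11, and so had those without. The difference between these groups was not tested, and levels differed too, with a median mean level of 7.38 FPKM against 9.45. Members on chromosome 19 had a median of -0.063 (0.017 under median-ratio rescaling), and members elsewhere -0.12. Members with over 10 fingers had a median of -0.12 and those with 1 to 5 fingers -0.11.

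Neighbouring members lay on both sides of the control. Joining members with gaps of at most 1000000 bases gave 7 groups of at least 4 genes, and 6 of these held both higher and lower members. Of all members 25.0% were higher in both libraries and 40.9% lower, so groups of this size would often hold both wherever they lay. A link with position was not tested. In the group on chromosome 7 (149069643 to 149497817), which holds 6 members from ZNF786 to ZNF746, 2 were higher in both libraries, 2 lower and 2 on opposite sides. On chromosome 16 (30378106 to 31917357) 2 of 7 were higher and 3 lower. The group at 43607219 to 45076588 on chromosome 19 had the lowest median, -0.43, with ZNF224 at -0.87 and ZNF227 at -0.53 but ZNF296 at 0.58. The largest on that chromosome, 7 genes at 55576770 to 56160893, had a median of -0.042 and ran from -0.36 to 0.38.

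The knockdown libraries differed from each other at least 2-fold, on the log2(FPKM + 1) scale, in 5 members (3.79%), against 8.99% of all genes tested. These were ZNF580, ZNF385A, ZNF317, ZNF512B and ZNF778. ZNF580 had 22.4 FPKM in library 1 and 7.92 in library 2, against 15.7 in the control. The KRAB gene ZNF317 ran the other way, with 9.71 and 23.0 FPKM against 16.1, and the KRAB gene ZNF778 had 5.54 and 12.1 against 6.43. ZNF512B, with 7.21 and 3.10 FPKM against 4.99, had a mean log2 fold change of -0.046 that turned to 0.030 under median-ratio rescaling and 0.088 with quantile normalization. Library 1 was above library 2 in 67 members and below it in 65. From the smallest whole reads behind the values, the counting SE of the log2 ratio to the control was at most 0.14 in library 1 and 0.11 in library 2 for ZNF317. It covers counting error only, not the spread between cultures or preparations.

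RNA was found for the proteins through which KRAB fingers act, and 0 of 17 genes of that list passed limma's threshold in either direction. TRIM28, the corepressor that binds KRAB, had 218 and 252 FPKM, against 204 in the control, and the methyltransferase SETDB1 had 15.99 and 17.1 against 17.6. Both were close to the control. The HP1 gene CBX5 had 19.5 and 10.6 FPKM, against 46.9 in the control, or -1.63 ± 0.45 (SE) on the log2 scale, at a limma adjusted p of 0.494. Of the list, 2 genes (CBX5 and CHD3) had an unadjusted limma p under 0.05, or 11.8%, against 7.07% of all genes tested. The other HP1 genes were nearer the control, CBX1 with 83.3 and 85.1 against 139 and CBX3 with 90.0 and 85.1 against 100.2. CHD3, a NuRD remodeller, had 9.57 and 9.84 FPKM, against 22.6 in the control, while its paralog CHD4 had 96.8 and 114 against 108. ATF7IP, the partner of SETDB1, had 4.14 and 5.22 against 9.57. In all, 9 of the 17 were lower in both libraries and 4 higher, with a median of -0.17, where 37.6% of all genes tested and 32.8% of those at 5 FPKM or more were lower. Under median-ratio rescaling 7 were lower and 4 higher, with a median of -0.086, and with quantile normalization 11 were lower and 3 higher, with a median of -0.17.

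**Figure D4:**
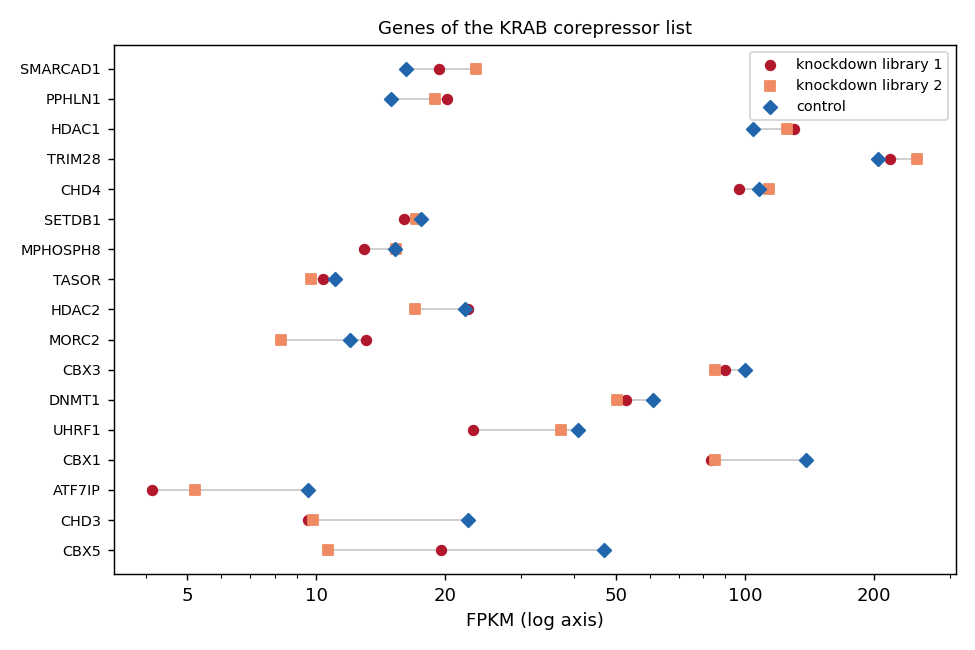
FPKM (x axis, log scale) of 17 genes of the KRAB corepressor list in knockdown library 1 (circle), knockdown library 2 (square) and the control (diamond), ordered by mean log2 fold change. TRIM28 at the right has the control point lowest, at 204 FPKM, and in CBX5 and CHD3 the control lies well to the right of both knockdown libraries.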

How the data were processed

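The deposited values are FPKM per gene and library, computed by the authors. Trimmomatic, HISAT2 and the build GRCh38.p13 are named per the submitters' processing notes. Versions of the tools, the read counter, whether it used strand and which gene models it took were not found in the labels. KEGG pathway names and transcription factor families are other annotation text that the authors deposited with the values, of which only the pathway names were used.

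The FPKM were tested as log2(FPKM + 1) with limma 3.58.1 (R 4.3.3, mean-variance trend), knockdown against control, for genes with a mean FPKM of at least 1, with Benjamini-Hochberg adjustment over all 11216 genes and a threshold of 0.05. The prior had 10.92 degrees of freedom. The fit takes the single control to have the spread seen between the knockdown libraries (1 residual degree of freedom), and it was tested on simulated data with known changes. There it estimated fold changes without bias and found nearly all the largest, but more of its calls were false than the threshold allows (the prior degrees of freedom were mostly estimated too high), so the genes it calls over the whole table are not secure. For 100% of genes the values stood in whole-number proportions (relative tolerance 1e-09). The smallest reads that give them summed to 14832142 and 15758794 in knockdown libraries 1 and 2 and 14632390 in the control; a factor common to a gene's libraries cannot be seen, so reads may be higher and counting errors lower.

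Fingers, KRAB matches and shared windows were read from the longest complete GENCODE v29 coding transcript per gene, in place of a protein table, matched by Entrez number for all 132 genes. The finger pattern has 2 to 4 residues between the cysteines and 3 to 5 between the histidines. The members and gene lists were chosen with earlier results of these data known. Named are the 6 members with the highest level, the 10 highest and 10 lowest on 1 side in both libraries, the 5 that differ most between the knockdown libraries, up to 4 per list by size of change, and 3 on each side of the threshold. ZNF121, ZNF592, ZNF598, ZNF207, ZNF326, ZNF318, ZNF33A, ZNF227, ZNF646, ZNF786, ZNF746, ZNF410, ZNF23 and ZNF286A were added after their values were seen. Other scalings, pseudocounts, filters, limma settings, level thresholds and single knockdown libraries were tried as alternatives.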

Additional observations from a re-analysis of the deposited data

How the results depend on the processing

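No member passed limma's threshold under any of the 9 alternatives with a test, in which the smallest adjusted p among members ran from 0.540 to 0.924 and 1 to 3 members had an unadjusted p under 0.05. The count over all genes, 2, was 1 with a pseudocount of 5, with median-ratio rescaling, without the trend and with robust fitting, and 0 with no filter, with quantile normalization and with 5 prior degrees of freedom. The members' median of -0.11 was -0.071 with a pseudocount of 5, -0.026 with median-ratio rescaling and -0.055 with quantile normalization. With a threshold of 3 FPKM 107 ZNF genes were lower in both knockdown libraries, 2 of them at least 2-fold, and the median was -0.17; with 10 FPKM 13 were higher, 19 lower and the median was -0.075. With a single knockdown library (values with no test), the median ran from -0.10 to -0.074, 55 to 56 members were higher, 0 to 2 were at least 2-fold higher and 0 to 5 at least 2-fold lower. All of these 2-fold members came from knockdown library 2. Among 39 named members another scaling turned the sign for ZNF512B (0.030 with median-ratio rescaling, 0.088 with quantile normalization) and ZNF337 (0.016 with quantile normalization). With a single knockdown library it turned for 8, for 6 with library 1 alone and 2 with library 2 alone. Their log2 fold changes ran over the libraries from -0.90 to 0.49 for ZNF580, -0.92 to 0.41 for ZNF385A, -0.67 to 0.49 for ZNF317, -0.55 to 0.45 for ZNF512B, -0.18 to 0.82 for ZNF778, -0.37 to 0.11 for ZNF202, -0.24 to 0.0027 for ZNF337 and -0.067 to 0.20 for ZNF526. The cause of these turns was not tested. How the named members were picked partly fixed the count of 8. The 10 highest and 10 lowest had to be on 1 side in both libraries, so a single library could not turn them. Another 5 were picked because their knockdown libraries differ most. The count therefore does not give the share among all members. For 45 of the 132 (34.1%), the control value fell between those of the knockdown libraries. The same held for 30.7% of all genes tested and 30.2% of those at 5 FPKM or more. No paired analysis was possible because the study holds a single control library. The upper limit of the counting SE was largest for ZNF32, at 0.52 (library 1) and 0.65 (library 2). It comes from the smallest whole reads, in which a common factor cannot be seen, so it does not rank members by depth. No library shows how much a second control would differ.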
